A study of Mus musculus with 6 samples.

Results

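Phase II conjugation enzymes join a small polar group to reactive or fat-soluble compounds so that cells can export them. They were read here as every probe, other than control spots, whose gene name in the scanner files is that of a glutathione S-transferase (Gst with its class letter, or Mgst), a UDP-glycosyltransferase (Ugt) or a sulfotransferase (Sult) followed by a number. This rule, which uses names and no measured value, found 78 of the 55681 probes, for 56 genes: 24 of the glutathione group, 15 of the glucuronide group and 17 of the sulfate group. The tested mice were 3 male C57BL/6 animals whose shaved backs received ultraviolet B light (UVB) at 180 mJ/cm2, 3 times a week for 2 weeks, beginning 2 days after shaving. They were anaesthetised for exposure, which the labels do not state of the untreated mice. The untreated mice were 3 male C57BL/6 animals, shaved in the same way and kept dark with no exposure. All 6 were 6 to 8 weeks old, the labels name no allele or transgene, and the sources used here do not state how long after the last exposure skin was taken. Skin RNA of each mouse went to 1 Agilent array of a single colour (Cy3), which records the brightness of 60-base probes.

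Glutathione S-transferases attach the tripeptide glutathione to electrophiles, among them the aldehydes and peroxides that arise when light oxidises membrane lipids. UDP-glycosyltransferases add a sugar, mostly glucuronic acid from UDP-glucuronic acid, to phenols, steroids and bilirubin. Sulfotransferases move sulfate from PAPS, the activated sulfate donor, onto phenols and steroids, and in the epidermis Sult2b1 makes cholesterol sulfate, a lipid of the skin barrier. Many of these genes are known targets of the transcription factor NRF2 or of the aryl hydrocarbon receptor.

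The 6 arrays held 59305 spots each that were not controls, of which 54.9% to 63.3% lay well above background, and none was saturated. All 6 lay on 1 slide with 1 scan time. The number of arrays limits the precision of every value. A level is given as relative signal, the processed signal of a probe divided by the 75th percentile of its array, which was 302 to 352 on UVB arrays and 363 to 519 on control arrays. Levels of different probes are not compared as amounts of RNA, since brightness depends on the probe. The sums over cell type markers given below weigh bright probes most. A fold change is given on the log2 scale as UVB over control with the standard error of limma, a linear model fitted to all genes at once, and n = 3 mice per group throughout. A gene was tested where at least 3 arrays read a probe of it well above background, and passed where the limma p adjusted over all 24354 targets lay under 0.05. In these whole-skin samples, fewer cells of a type and less RNA per cell cannot be told apart.

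After UVB, of the 23 tested genes of the glutathione group, 3 rose, 4 fell and 16 did not pass. Of the 7 tested genes of the glucuronide group, 5 rose, of which Ugt2b37 was near the threshold, and none fell. Of the 7 tested genes of the sulfate group, none rose, 3 fell and 4 did not pass. Of these 3, Sult2a2 and Sult2a6 were tested only because their control arrays were well above background, and their values in UVB skin are at background. Over the 4 sulfate genes well above background on all 6 arrays, 1 fell, Sult5a1. Over all targets on the array 5.55% rose and 7.01% fell, 12.6% in all, against 40.5% of the 37 tested conjugation enzyme genes. The 40.5% counts Sult2a2 and Sult2a6, so it is given as a description only. Over conjugation enzyme genes well above background on all 6 arrays, which leaves both out, 7 rose and 6 fell. With that filter more of all targets rose and fell as well, although fewer were tested. The median log2 fold change was -0.27 in the glutathione group, 1.70 in the glucuronide group and -0.58 in the sulfate group, beside -0.04 for all targets. Over genes well above background on all 6 arrays the sulfate median was -0.17 (4 genes). These counts depend on single arrays. With any 1 array left out, 4 to 7 of the 37 genes rose and 3 to 6 fell, fewest of both without control replicate 2. Of the 15 genes that passed, 7 also passed in all 6 of these fits: Mgst2, Gstz1, Ugt1a6a, Ugt1a10, Ugt3a1, Sult2a2 and Sult2a6. For Sult2a2 and Sult2a6 this is no sign of stability, since their UVB values are at background in every fit.

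**Figure D1:**
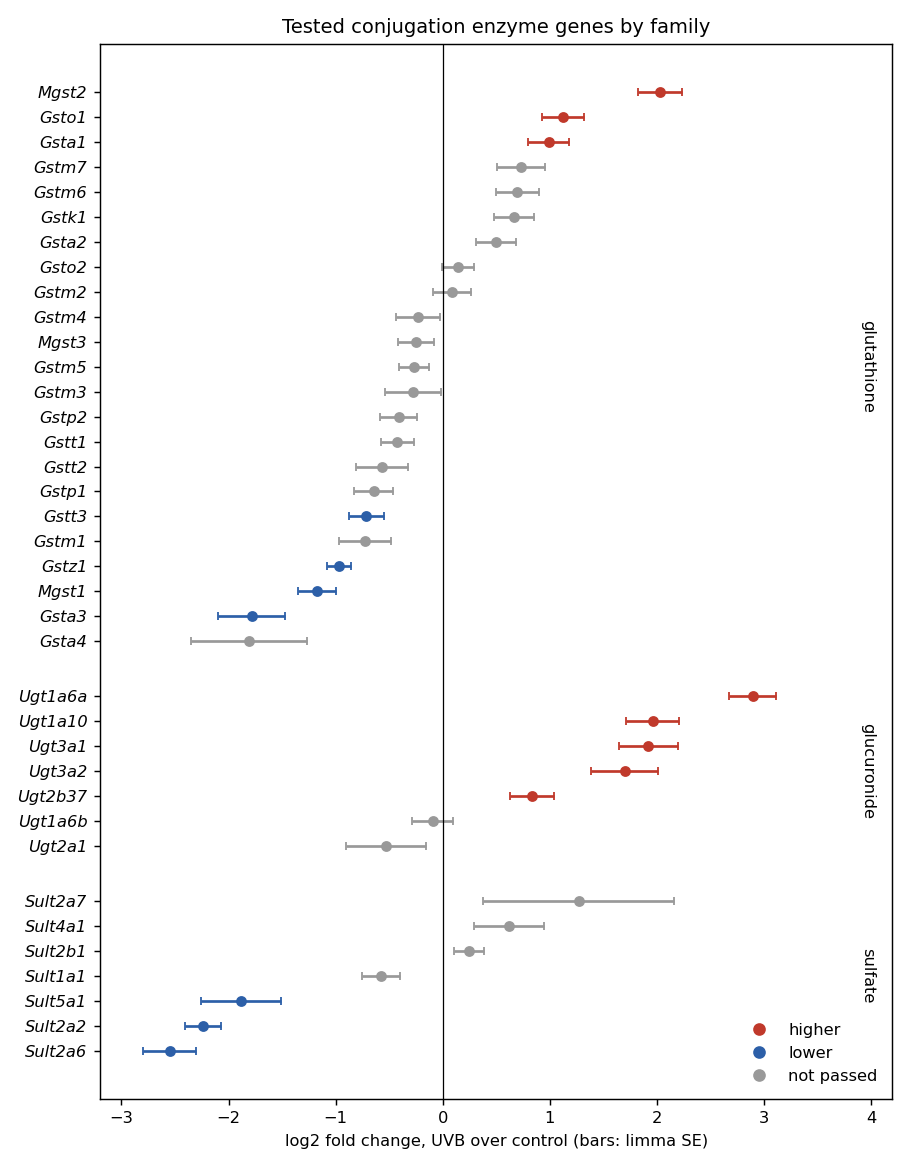
Log2 fold change of UVB over control for each of the 37 tested conjugation enzyme genes, ordered by size within the glutathione, glucuronide and sulfate groups. Points are limma estimates, bars are standard errors, and red and blue mark the 8 higher and 7 lower genes that passed. The glutathione group spreads to both sides of 0, while 5 of 7 glucuronide genes lie to the right and the called sulfate genes to the left.

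The 19 genes that were not tested were Gstt4, 8 genes of the glucuronide group and 10 of the sulfate group. Of these, 18 stayed at background throughout, among them 6 Ugt2a and Ugt2b genes (Ugt2a3, Ugt2b1, Ugt2b34, Ugt2b35, Ugt2b36 and Ugt2b38), Ugt2b5, the oestrogen sulfotransferase Sult1e1 and Sult1b1. Ugt8a, the enzyme that adds galactose to ceramide, was well above background on 1 control array only. Probes at background carry an offset between the groups on this scale: over the 18532 probes that were dim on all arrays, UVB stood 0.54 higher on the log2 scale, and over the 24 such probes of conjugation enzymes 0.55 higher. A small rise of a dim gene can hold that offset.

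Among the membrane-bound glutathione enzymes, Mgst2 rose and Mgst1 fell. Mgst2, which can also join glutathione to leukotriene A4, had a relative signal of 71.7, 100 and 65.6 in UVB skin, against 18.1, 17.1 and 22.6 in control skin. Every UVB array lay above every control array, and the rise was 2.03 ± 0.20 in log2 units (limma adjusted p = 0.00451). Mgst1, an enzyme of the endoplasmic reticulum and outer mitochondrial membrane that also reduces lipid peroxides, had 20.2, 18.1 and 17.6 in UVB skin, against 33.5, 49.2 and 44.6 in control skin. The groups did not overlap, and the log2 fold change was -1.17 ± 0.17 (limma adjusted p = 0.0127), with -1.13 ± 0.21 from a second probe of the gene. Without control replicate 2 the fall of Mgst1 did not pass (limma adjusted p = 0.0515). Mgst3, the remaining member, overlapped between the groups at 9.11 to 13.5 in UVB skin and 12.9 to 13.95 in control skin (-0.25 ± 0.17). The Mgst2 probe lies on chromosome 3 at 51486449 to 51486508 and that of Mgst1 on chromosome 6 at 138104846 to 138104905, both in mm9, the build of the files.

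The omega-class gene Gsto1, whose protein reduces dehydroascorbate and protein thiols, was among the risers. Its relative signal was 93.0, 119 and 71.9 in UVB skin, against 41.3, 41.6 and 44.97 in control skin. No array of one group reached into the other, and Gsto1 rose by 1.12 ± 0.20 (limma adjusted p = 0.0202). The rise did not pass without UVB replicate 1 or without control replicate 1, 2 or 3 (limma adjusted p = 0.0518 to 0.0806). Its neighbour on chromosome 19, Gsto2, gave 0.278 to 0.322 in UVB skin and 0.241 to 0.322 in control skin, a log2 fold change of 0.14 ± 0.15.

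The alpha class moved in both directions. Gsta1 rose, with a relative signal of 14.9, 18.3 and 17.8 in UVB skin, against 6.60, 9.64 and 9.71 in control skin. Its log2 fold change was 0.99 ± 0.19 (limma adjusted p = 0.0258), and all UVB arrays lay above all control arrays. It did not pass without UVB replicate 1, 2 or 3 or control replicate 2 (limma adjusted p = 0.0631 to 0.0694) or with median scaling (0.0539). Gsta2, whose probe shares 46 of 50 overlapping bases with that of Gsta1, so that each probe may also read the other transcript, stood at 14.9, 22.2 and 22.1 in UVB skin, against 13.1, 13.5 and 14.7 in control skin. It did not pass (0.50 ± 0.19, limma adjusted p = 0.129), but did with normexp background correction (0.0497). Gsta3, which in mouse inactivates the epoxide of aflatoxin B1, fell. Its relative signal was 0.395, 0.553 and 0.877 in UVB skin, against 2.15, 2.29 and 1.59 in control skin. The groups stood clear of each other, with a log2 fold change of -1.78 ± 0.31 (limma adjusted p = 0.0196) and -1.64 ± 0.29 from its other probe. Gsta3 did not pass without UVB replicate 1 or 2 or control replicate 1 or 2 (limma adjusted p = 0.0518 to 0.0769). Gsta4, which clears the lipid aldehyde 4-hydroxynonenal, showed a difference as large but a wide spread among controls: 0.581, 0.696 and 0.640 in UVB skin, against 2.53, 4.61 and 0.947 in control skin. It did not pass (-1.80 ± 0.54, limma adjusted p = 0.0783), but did without control replicate 3. Gsta1, Gsta2 and Gsta4 are neighbours on chromosome 9, while Gsta3 lies on chromosome 1.

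Gstz1 of the zeta class, better known as maleylacetoacetate isomerase of tyrosine breakdown, had a narrow spread. Its relative signal was 4.21, 4.64 and 4.71 in UVB skin, against 8.79, 8.63 and 9.14 in control skin. Its log2 fold change was -0.97 ± 0.11 (limma adjusted p = 0.0063), with no overlap of the groups. Gstt3 of the theta class had 3.28, 4.22 and 3.96 in UVB skin, against 7.33, 5.90 and 5.59 in control skin. It passed with all arrays (-0.71 ± 0.16, limma adjusted p = 0.0402) but in no fit with 1 array fewer (0.0642 to 0.115), nor with quantile normalization (0.0517) or the deposited table (0.0515). Its chromosome 10 neighbours Gstt1 (-0.43 ± 0.15) and Gstt2 (-0.57 ± 0.24) also lay lower on every UVB array than on any control array, without passing. Such a separation was common on these arrays. For 38.5% of all targets the groups did not overlap: for 22.6% every UVB array lay below every control array, and for 15.9% every UVB array lay above, against 14 and 12 of the 37 conjugation enzyme genes.

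Neither the pi class nor the mu class held a gene that passed. Gstp1, an abundant enzyme of epithelia, had 4.81, 4.91 and 3.29 in UVB skin, against 6.61, 6.46 and 6.93 in control skin (-0.64 ± 0.18, limma adjusted p = 0.0685). Its near copy Gstp2 had 41.8, 37.8 and 28.1 in UVB skin, against 47.2, 47.4 and 46.8 in control skin (-0.41 ± 0.17). Both stood lower on all UVB arrays, and both of their 2 tested probes gave a negative sign. The 7 mu-class genes spread from -0.73 ± 0.25 for Gstm1 to 0.73 ± 0.23 for Gstm7. Gstm2 (0.09 ± 0.17) and Gstm5 (-0.27 ± 0.14) overlapped between the groups, while Gstm6 (0.70 ± 0.20) lay higher on each UVB array. The brighter of the Gstm1 probes is placed on chromosome 5 in the files although the other one and the remaining mu genes are on chromosome 3, and its 2 probes gave -0.73 ± 0.25 and -0.75 ± 0.25. Gstk1, the kappa-class enzyme of mitochondria and peroxisomes, stood at 9.66, 15.4 and 12.9 in UVB skin, against 8.01, 7.52 and 8.06 in control skin and did not pass (0.66 ± 0.19, limma adjusted p = 0.0687).

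**Figure D2:**
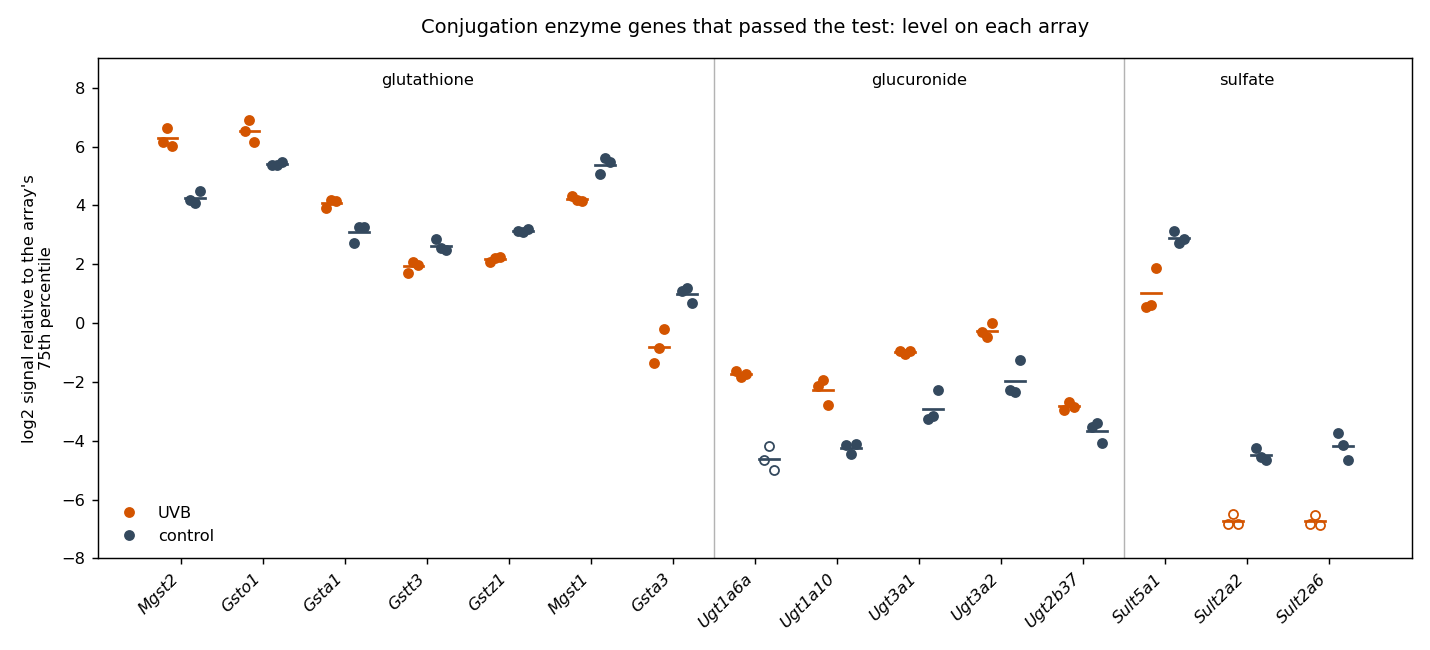
Signal of the 15 genes that passed on each of the 6 arrays, on a log2 scale relative to the 75th percentile of the array, with UVB (orange) left of control (slate) and bars at the group means. Open circles mark groups in which not all 3 arrays were well above background. The groups do not overlap for any of the 15 genes, which were chosen by passing the test of the same groups, nor for 38.5% of all targets. Sult2a2 and Sult2a6 lie at background on all UVB arrays.

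Upstream sequence was set beside the glutathione genes because the antioxidant response element, the site bound by NRF2, has a core that can be searched for by its letters, TGACNNNGC on either strand. RefSeq (GRCm38.p6) windows, from 250 bases before a start site to 50 after it, matched 48 of the 56 genes, 30 of them tested. Some genes have several start sites and so several windows. The core occurred in 12.4% of all 32851 windows and in 4 of the 59 windows of conjugation enzyme genes. These 4 windows belong to 4 tested genes, Gsta3, Gstm5, Gstm7 and Mgst1. Of these 4, Gsta3 and Mgst1 passed, and both were lower after UVB. The bases before their start sites, all on the plus strand, follow beside those of Mgst2, the glutathione gene with the largest rise, whose window holds no such match. Capitals mark the core, which in Mgst1 reads on the opposite strand. As printed, its leftmost base lies 121 bases before the start site in Gsta3 and 56 bases before the start site printed for Mgst1. A second window of Mgst1 and a second window of Gstm7 held no such match.
Gsta3, chr1:21240335-21240584: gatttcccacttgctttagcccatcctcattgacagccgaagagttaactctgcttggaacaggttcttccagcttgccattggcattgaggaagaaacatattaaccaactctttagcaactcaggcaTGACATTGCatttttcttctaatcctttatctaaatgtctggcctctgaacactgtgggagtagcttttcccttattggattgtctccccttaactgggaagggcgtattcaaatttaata
Mgst1, chr6:138140277-138140526: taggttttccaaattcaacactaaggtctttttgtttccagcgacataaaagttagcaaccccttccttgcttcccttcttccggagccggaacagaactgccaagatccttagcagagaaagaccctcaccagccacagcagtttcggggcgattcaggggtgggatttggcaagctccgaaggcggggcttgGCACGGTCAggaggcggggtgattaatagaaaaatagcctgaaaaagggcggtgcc
Mgst2, chr3:51660929-51661178: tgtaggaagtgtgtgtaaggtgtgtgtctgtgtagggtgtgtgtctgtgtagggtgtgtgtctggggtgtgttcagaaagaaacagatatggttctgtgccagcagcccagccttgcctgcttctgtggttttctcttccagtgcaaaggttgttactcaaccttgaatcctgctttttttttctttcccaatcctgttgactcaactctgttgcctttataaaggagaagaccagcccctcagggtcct
The core of the xenobiotic response element, which the aryl hydrocarbon receptor binds, is GCGTG on either strand. It was found in 32.4% of all windows and in 12 of the 59 windows of conjugation enzyme genes. These belong to 10 genes, 7 of them tested, of which Gsta1 alone passed. A match of letters describes the sequence and is not evidence of binding.

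The 5 glucuronide-group genes that rose lie on chromosome 1 (Ugt1a6a and Ugt1a10), chromosome 15 (Ugt3a1 and Ugt3a2) and chromosome 5 (Ugt2b37). The Ugt1a genes share their later exons and differ in the first one, and Ugt1a6 enzymes handle small phenols. Ugt1a6a had a relative signal of 0.325, 0.283 and 0.303 in UVB skin, against 0.0397, 0.0550 and 0.0310 in control skin, where 2 of 3 arrays were well above background. Its log2 fold change was 2.89 ± 0.22 (limma adjusted p = 0.00258), the largest fitted rise among the 37 genes. Ugt1a10 had 0.230, 0.264 and 0.146 in UVB skin, against 0.0565, 0.0457 and 0.0583 in control skin. It rose by 1.96 ± 0.25 (limma adjusted p = 0.00795), and a dimmer probe next to it, well above background on 2 UVB arrays and no control array, was not tested. With normexp background correction the rises were smaller, 1.201 for Ugt1a6a and 0.77 for Ugt1a10, and still passed (limma adjusted p = 0.00116 and 0.0101).

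Another probe of the same cluster gave a different reading. The brighter Ugt1a6b probe, on chromosome 1 at 90115493 to 90115552 of mm9, close to the Ugt1a6a probe at 90116514 to 90116573, read 22.4, 24.5 and 19.1 in UVB skin, against 18.3, 25.7 and 26.9 in control skin. The groups overlapped, with a log2 fold change of -0.09 ± 0.19. The second Ugt1a6b probe lies at 90004249 to 90004308 and read 0.183, 0.176 and 0.151 in UVB skin, against 0.112, 0.135 and 0.138 in control skin, with all UVB arrays higher (0.41 ± 0.15, limma adjusted p = 0.124 over all probes). The sign for Ugt1a6b therefore depended on the probe. The Ugt1a6a probe and the brighter Ugt1a6b probe lie late in their transcripts, at offsets of 3238 and 2212 bases. The Ugt1a10 probe that passed and the second Ugt1a6b probe lie at 794 and 855 bases. Because the later exons are shared, the rise named here for Ugt1a6a is best read as one of its probe. Which transcripts of the cluster each probe reads is not annotated in the files.

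Ugt3a1 and Ugt3a2 are neighbours on chromosome 15. Their human counterparts transfer other sugars than glucuronic acid, so they belong to the group by name rather than by donor. Ugt3a1 had 0.513, 0.482 and 0.521 in UVB skin, against 0.103, 0.111 and 0.208 in control skin. It rose by 1.92 ± 0.28 (limma adjusted p = 0.0115), and by 1.00 with normexp. Ugt3a2 had 0.806, 0.728 and 1.01 in UVB skin, against 0.208, 0.198 and 0.420 in control skin. It rose by 1.70 ± 0.32 (limma adjusted p = 0.0232), and its second probe stayed at background on all arrays. Control replicate 3 was the highest control array for each of the pair. Ugt3a2 passed without that array but not without any of the other 5 (limma adjusted p = 0.0534 to 0.0815).

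Ugt2b37, of a subfamily that conjugates steroids and bile acids, was near the threshold. It had 0.128, 0.157 and 0.138 in UVB skin, against 0.0859, 0.0958 and 0.0595 in control skin, a log2 fold change of 0.83 ± 0.21 (limma adjusted p = 0.0489). It passed in none of the 6 fits with 1 array fewer (limma adjusted p = 0.0801 to 0.11). Nor did it pass with quantile normalization (limma adjusted p = 0.07125), median scaling (0.0732) or the deposited table (0.0719). With normexp it stood at 0.28 and did not pass (limma adjusted p = 0.0959). Its rise stands beside the offset of 0.54 of dim probes given above. Ugt2a1, an enzyme best known from olfactory epithelium, was well above background on all control arrays and 1 UVB array and did not pass (-0.53 ± 0.37).

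In the sulfate group, Sult5a1, a sulfotransferase of unsettled substrate, fell. It had 1.45, 1.54 and 3.70 in UVB skin, against 8.72, 6.64 and 7.20 in control skin. UVB replicate 3 stood above the other UVB arrays but below all controls. The log2 fold change was -1.89 ± 0.37 (limma adjusted p = 0.0272). Sult5a1 passed without UVB replicate 3 but not without any other array (limma adjusted p = 0.0706 to 0.0831).

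Sult2a2 and Sult2a6 belong to the hydroxysteroid sulfotransferases, known from liver for sulfating steroids and bile acids. Sult2a2 read 0.00883, 0.0111 and 0.00878 in UVB skin, against 0.0531, 0.0431 and 0.0396 in control skin. Sult2a6 read 0.00888, 0.0110 and 0.00867 in UVB skin, against 0.0750, 0.0568 and 0.0398 in control skin. Both were well above background on all 3 control arrays and on no UVB array. They entered the test only through the control arrays, so their limma adjusted p (0.00257 for Sult2a2 and 0.0042 for Sult2a6) is given as a description and supports nothing. Since the UVB values are at background, the fall has only a bound, set by the lowest signal well above background on each UVB array. For Sult2a6 that bound, taken on group means, is 1.18-fold. It too only describes the control values through which the probe entered the test. For Sult2a2 the bound is under 1 and no fold is given.

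Sult2a6 carries 3 probes, and they disagreed. The probe behind the values above overlaps another one by 42 bases, of which 40 are the same. The pair is printed here because probes that share most of their bases differed in detection. Capitals mark the 2 bases of the overlap that differ, and outside the overlap each probe has bases that the other lacks.
Sult2a6 probe at background on all arrays, chr7:14811213-14811272 of mm9, minus strand: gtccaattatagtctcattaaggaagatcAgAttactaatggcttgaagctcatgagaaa
Sult2a6 probe well above background on the control arrays only, chr7:14807923-14811254 of mm9, minus strand: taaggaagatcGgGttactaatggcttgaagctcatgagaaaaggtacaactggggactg
The first of these read 0.00895, 0.0113 and 0.00887 in UVB skin, against 0.00755, 0.00780 and 0.00670 in control skin. The second spans a gap in the genome, as a probe across an exon junction does. The Sult2a2 probe in turn shares 54 of 59 overlapping bases with that of Sult2a1, which stayed at background on all arrays. Which of these near-identical genes a probe reads was not tested, and the fall is best read as one of the Sult2a2 and Sult2a6 probes.

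The barrier enzyme Sult2b1 did not pass. It had 56.4, 62.1 and 54.5 in UVB skin, against 43.5, 47.5 and 55.8 in control skin, and the groups overlapped (0.24 ± 0.14, limma adjusted p = 0.288). Sult1a1, which sulfates small phenols, had 0.370, 0.497 and 0.431 in UVB skin, against 0.588, 0.580 and 0.769 in control skin (-0.58 ± 0.18, limma adjusted p = 0.0819). Its dimmer probe gave -0.69 ± 0.14 and passed over all probes (limma adjusted p = 0.0308). Sult4a1 (0.62 ± 0.33) and Sult2a7 (1.27 ± 0.89) overlapped between the groups.

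At the level of probes, 51 of the 78 were tested, of which 7 were higher and 10 lower after UVB, where 5.08% and 6.1% of all 33762 tested probes were. The 10 include the Sult2a2 and Sult2a6 probes, which were tested only through the control arrays. Over the 45 probes well above background on all 6 arrays, 7 were higher and 8 lower. With 1 array left out, 3 to 6 of the 51 were higher and 3 to 7 lower, with 3 higher without UVB replicate 1 or control replicate 2 and 3 lower without control replicate 2. Of the 12 genes with more than 1 tested probe, 3 had probes of both signs, Gstm2, Gstm3 and Ugt1a6b, and no probe of these 3 passed. The 2 probes of Gsta3, of Mgst1 and of Gstp1 shared a negative sign.

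**Figure D3:**
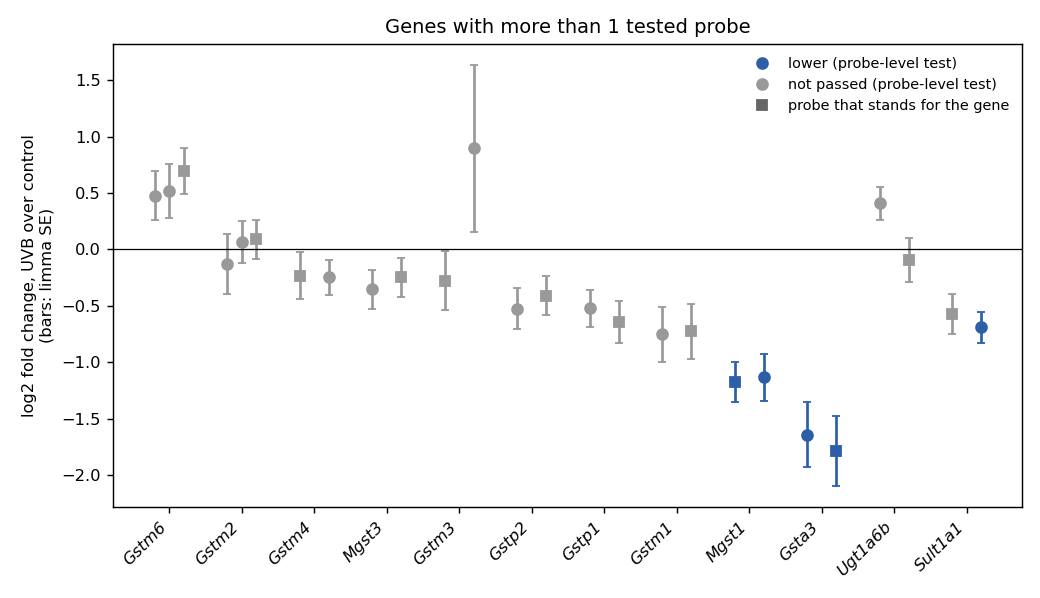
Log2 fold change of UVB over control for each tested probe of the 12 genes with more than 1 of them, with standard errors. Squares are the brightest probe, which stands for the gene, and blue marks probes that passed over all probes. Both probes of Mgst1 and of Gsta3 lie below 0, while those of Gstm2, Gstm3 and Ugt1a6b lie on both sides of it.

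The genes that supply and surround these enzymes were read from lists of known pathway members. Of 8 genes of UDP-glucuronic acid supply and glucuronide release, none rose and 2 fell, with a list median of 0.04. Ugdh, which oxidises UDP-glucose to UDP-glucuronic acid, had 4.58, 4.65 and 4.17 in UVB skin, against 8.996, 7.72 and 6.74 in control skin (-0.80 ± 0.15, limma adjusted p = 0.0218). Ugp2, which makes UDP-glucose, had a log2 fold change of -0.64 ± 0.13 (limma adjusted p = 0.0289). All UVB arrays lay below all control arrays for both, the reverse of the Ugt genes that rose. With 1 array left out, Ugdh kept its call only where that array was control replicate 3 and had a limma adjusted p of 0.0523 to 0.0865 in the other fits. Ugp2 kept its call only where UVB replicate 2 was left out, with 0.065 to 0.111 in the other fits.

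Of 12 genes of PAPS supply and sulfate release, 1 rose and 2 fell, with a median of -0.37. Papss2, a synthase of PAPS, changed by -0.59 ± 0.12 (limma adjusted p = 0.0262) and the arylsulfatase Arsa by -1.06 ± 0.18 (0.0187). Sts, the steroid sulfatase that splits the cholesterol sulfate made by Sult2b1, had 6.86, 8.33 and 10.5 in UVB skin, against 2.06, 2.12 and 4.24 in control skin. It rose by 1.67 ± 0.32 (limma adjusted p = 0.0252). With 1 array left out, Papss2 kept its call only in the fit that dropped UVB replicate 3 (limma adjusted p of 0.0559 to 0.109 in the rest) and Sts only in the fit that dropped control replicate 3 (0.0625 to 0.0925 in the rest), while Arsa did not pass without UVB replicate 1 or 2 or control replicate 2 (0.0509 to 0.0755).

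Of 22 tested genes of glutathione supply and use, 3 rose and 4 fell, with a median of -0.16. Gsr, the reductase that restores oxidised glutathione, had 3.63, 3.79 and 3.70 in UVB skin, against 7.17, 6.56 and 6.45 in control skin (-0.86 ± 0.11, limma adjusted p = 0.00832). Slc3a2, a chain of the cystine transporter (-0.74 ± 0.11), Gpx4, the peroxidase of membrane lipids (-0.72 ± 0.11), and the dipeptidase Dpep2 (-0.81 ± 0.12) fell too. Gpx3, the secreted peroxidase, rose by 2.93 ± 0.38, and by 1.64 with normexp. The glutaredoxin Glrx rose by 1.69 ± 0.21, and Ggct, which breaks down gamma-glutamyl peptides, by 1.02 ± 0.25 (limma adjusted p = 0.00863, 0.00756 and 0.0497 for Gpx3, Glrx and Ggct). Gclc (-0.20 ± 0.11) and Gclm (-0.21 ± 0.15), the subunits of the rate-limiting enzyme of glutathione synthesis, and the synthetase Gss (-0.32 ± 0.15) did not pass. Ggct passed in none of the 6 fits with 1 array fewer (limma adjusted p = 0.0618 to 0.113). Slc3a2 (0.0638), Dpep2 (0.0643) and Gpx4 (0.0549) did not pass without control replicate 2, nor Gpx4 without UVB replicate 1 (0.0501). Dpep2 stood at -0.35 with normexp.

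Of 15 tested regulators of phase II genes, none rose and 2 fell. Ahrr, the repressor of the aryl hydrocarbon receptor, had 0.163, 0.171 and 0.131 in UVB skin, against 0.534, 0.558 and 0.453 in control skin (-1.74 ± 0.16, limma adjusted p = 0.00362, and -1.14 with normexp). Ppara, a lipid-sensing nuclear receptor, changed by -1.33 ± 0.17 (limma adjusted p = 0.00832). Nfe2l2, which encodes NRF2 (-0.03 ± 0.19), its inhibitor Keap1 (-0.15 ± 0.16) and Ahr itself (-0.13 ± 0.13) did not pass. Of 16 NRF2 targets outside the 3 groups, none rose and 3 fell, the reductases Akr1b8 (-1.07 ± 0.17) and Cbr1 (-0.68 ± 0.13) and the aldehyde dehydrogenase Aldh3a1 (-0.79 ± 0.14), while Nqo1 (-0.46 ± 0.19) and Hmox1 (1.13 ± 0.34) did not pass. Akr1b8, Cbr1 and Aldh3a1 did not pass without UVB replicate 1 (limma adjusted p = 0.0598, 0.0765 and 0.0609) or control replicate 2 (0.0657, 0.101 and 0.0692), nor Cbr1 without UVB replicate 2 (0.0514), UVB replicate 3 (0.0599) or control replicate 3 (0.0706), nor Aldh3a1 without control replicate 1 (0.0537).

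Of 7 tested export pumps, 1 rose: Abcg2, an efflux pump that carries sulfate conjugates among other compounds, had 6.45, 8.97 and 5.58 in UVB skin, against 3.19, 3.82 and 2.58 in control skin (1.12 ± 0.23, limma adjusted p = 0.0301). With 1 array left out it kept its call only in the fit that dropped UVB replicate 3 (limma adjusted p of 0.0603 to 0.0831 in the rest). Of 9 tested other phase II enzymes, 1 fell, the arsenic methyltransferase As3mt (-0.82 ± 0.19, limma adjusted p = 0.0406), which passed in no fit with 1 array fewer (0.0644 to 0.109) and stood at -0.45 with normexp. Over the 89 tested genes of all 7 lists, 5 rose and 14 fell, where 5.55% of all targets rose and 7.01% fell, so that the share that rose was near that of all targets. With 1 array left out 2 to 5 rose and 3 to 11 fell, fewest of the falls without control replicate 2, and the risers were 2 without UVB replicate 1, UVB replicate 2, control replicate 1 or control replicate 2.

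**Figure D4:**
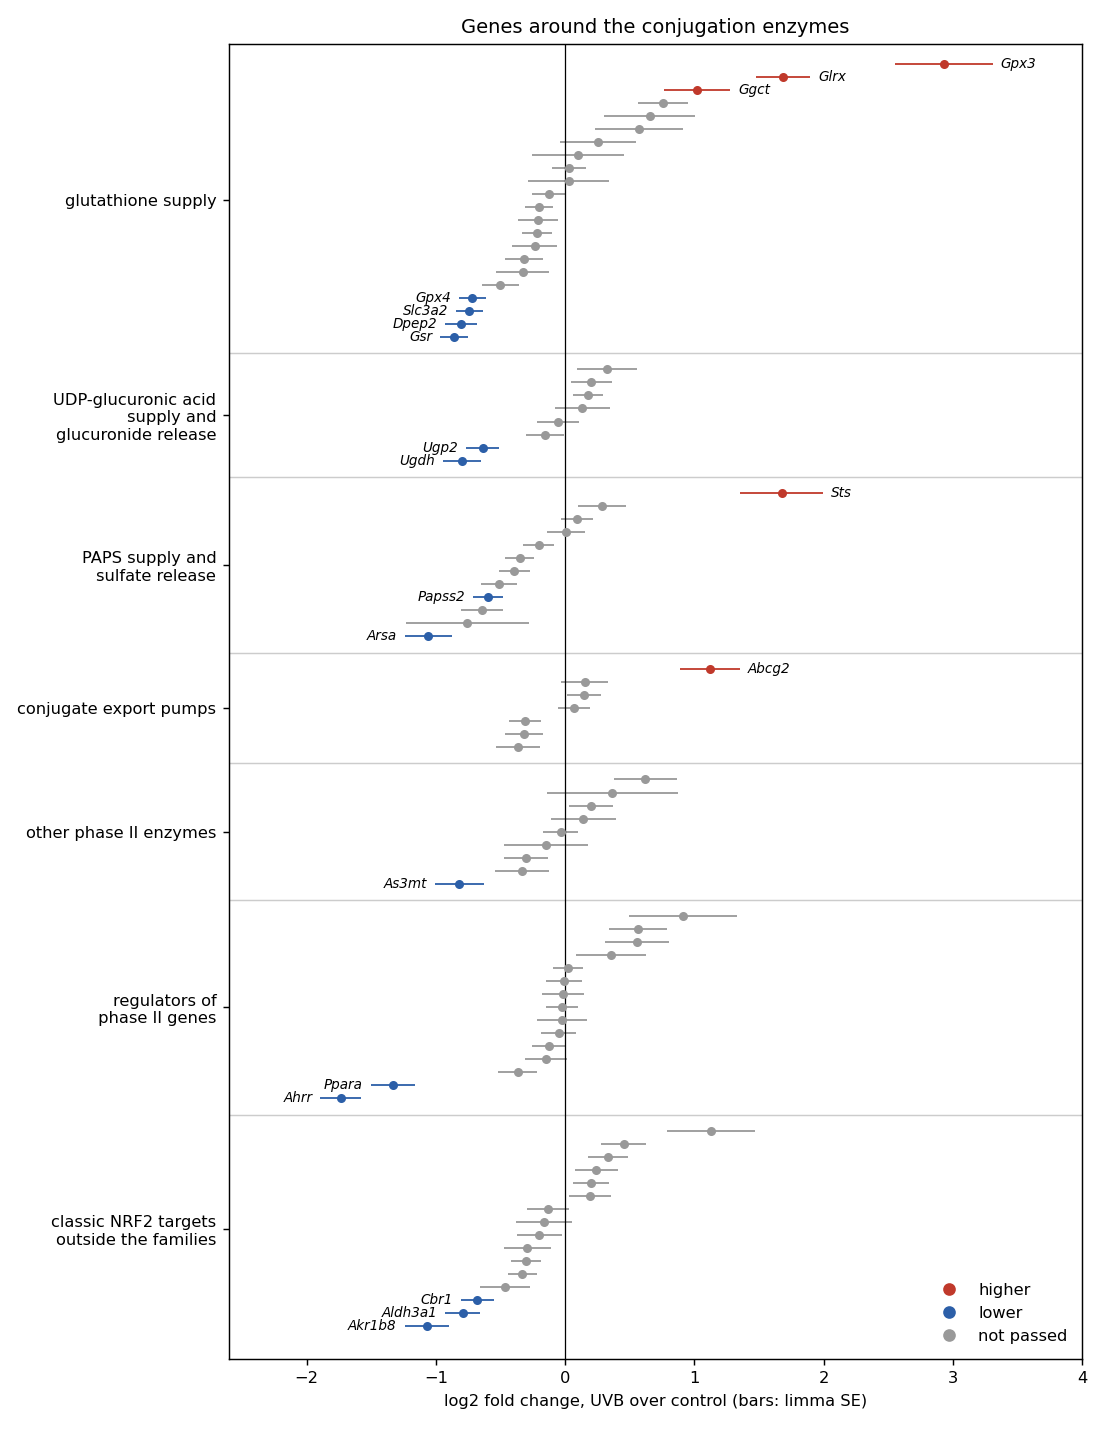
Log2 fold change of UVB over control for the tested genes of 7 pathway lists around the conjugation enzymes, with standard errors. Red and blue mark the 5 higher and 14 lower genes that passed, which are named. Ugdh and Ugp2, of UDP-glucuronic acid supply, lie left of 0.

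Markers of the cell types in skin moved as well, where 5.55% of all targets rose and 7.01% fell. Of 10 tested keratinocyte markers, all well above background on every array, Flg, Ivl and Lor rose and Col17a1 and Itga6 fell, with a summed relative signal of 3907 to 4608 in UVB skin and 2778 to 3307 in control skin. Of 17 tested markers of hair shaft and inner root sheath, 15 rose, with sums of 349 to 1492 in UVB skin against 24.0 to 29.3 in control skin. Of 14 sebaceous gland markers 4 fell (Cidea, Pparg, Scd1 and Soat1) and none rose, with a median log2 fold change of -0.88 and 3 of 14 above 0. Their sums, 715 to 872 in UVB skin and 712 to 849 in control skin, are mostly the signal of Krt79, which read 525 to 666 in UVB skin and 510 to 529 in control skin. Of 7 macrophage and dendritic cell markers 5 fell, with sums of 38.3 to 48.5 in UVB skin and 80.5 to 84.0 in control skin. The other 2 did not pass, Itgam (0.64 ± 0.18), which lay higher on every UVB array, and Mrc1 (-0.01 ± 0.66). Of 6 T cell markers 4 fell and 1 rose, with sums of 11.5 to 17.1 in UVB skin and 17.8 to 22.3 in control skin. Of 6 fibroblast markers 3 rose, with sums of 16.4 to 24.5 in UVB skin and 4.82 to 11.4 in control skin, and of 8 melanocyte markers 5 rose, with sums of 19.9 to 29.6 in UVB skin and 6.41 to 7.42 in control skin. Of 7 adipocyte markers 1 rose (Fabp4) and 2 fell (Cidec and Lpl), with a median log2 fold change of -0.99 and 2 of 7 above 0. Their sums were 7.85 to 30.4 in UVB skin and 4.31 to 10.4 in control skin. The UVB sums are mostly the signal of Fabp4, which read 5.63 to 27.9 in UVB skin and 0.169 to 0.848 in control skin. No skeletal muscle or endothelial marker passed, with muscle sums of 2.01 to 2.70 in UVB skin and 1.42 to 5.55 in control skin and endothelial sums of 11.3 to 13.9 in UVB skin and 9.08 to 10.5 in control skin. The part of these cell types in the values of the conjugation enzymes was not tested.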

How the data were processed

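Skin RNA of 3 UVB and 3 control mice was hybridised to 1-colour Agilent arrays. Per the file headers, the deposited intensity values came from Agilent Feature Extraction 10.7.1.1, detrended within each array, with surrogate values for dim spots, on a design in mm9. The deposited table holds log2 values whose making the sources used here do not state. Each of its columns has a median of 4.95 and correlates with its own array at 0.9986 to 0.9999, so that its scale is log2 intensity, and quantile normalization was inferred. It was an alternative. Here log2 intensity minus the 75th percentile of the array was used, without control spots and outlier-flagged spots (135 to 274 per array), and a gene was read from its brightest tested probe. Names came from RefSeq accessions (26582 of 55681 probes), symbols or synonyms (3094) or the files. The fit of UVB against control used limma 3.58.1 under R 4.3.3 (lmFit, then eBayes), with two-sided p-values adjusted by Benjamini-Hochberg over all targets, with no covariate. The steps were tested on simulated data. The members and lists were chosen with earlier results of these data known. Named were the genes that passed, the brightest 4 of each group, 11 chosen members, genes whose probes disagreed and passing pathway genes, with other list members chosen after their values were seen. The alternatives were other scalings, normexp (offset 50), the deposited table, 2 other filters, probe means, eBayes with trend, a replicate block and leaving out each array. Replicate numbers did not pair the samples.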

Additional observations from a re-analysis of the deposited data

How the results depend on the processing

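Of the 37 tested genes, 34 kept their sign in every setting run. The other 3 had log2 fold changes near 0 or probes that disagree: Gstm2 turned to -0.013 with median scaling and ranged from -0.038 to 0.24 with 1 array left out, lowest without control replicate 2, Gstm3 to 0.31 with the mean of a gene's probes, and Ugt1a6b to 0.16 with that mean and to between -0.27 and 0.011 with 1 array left out, above 0 without UVB replicate 3 (0.0053) or control replicate 3. In the glutathione group 6 genes rose with normexp and 5 with trend and robust eBayes, against 3, and in the sulfate group 1 fell, against 3, where a probe had to be well above background on all 6 arrays, which drops the Sult2a2 and Sult2a6 probes. Replicate numbers did not pair the mice: deviations of same-numbered arrays correlated at -0.11, -0.26 and -0.08. With a replicate block, which leaves fewer degrees of freedom, 5 genes rose and 3 fell, in the glutathione group 1 and 1, and among probes 4 and 2. Of the pathway genes 3 and 3 did. With 1 array left out, glutathione genes that rose numbered 1 to 3 and that fell 1 to 4, glucuronide genes that rose 3 to 4 and sulfate genes that fell 2 to 3. Conjugation enzyme genes that rose numbered 4 to 7 and that fell 3 to 6, probes 3 to 6 and 3 to 7, and pathway genes 2 to 5 and 3 to 11. The median of all targets stood at -0.14 with median scaling and -0.04 with the 75th percentile, and the medians of the 3 groups shifted with it to -0.37, 1.60 and -0.68. With normexp the medians were -0.20, 0.77 and -0.39, smaller in size. For dim genes, signal over background limits what can be said of fold size.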

Other observations

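Among the probes whose names in the files are older are 4 that RefSeq accessions place in the same families, outside the naming rule. Gstp3 (-0.29 ± 0.17, limma adjusted p = 0.242) and Sult2a8 (-0.12 ± 0.14, limma adjusted p = 0.536) overlapped between the groups. Here the standard errors come from a limma fit over all probes, dim ones included, and the adjusted p from the fit over tested targets. Sult2a8 read 1.13, 1.26 and 1.18 in UVB skin, against 1.23, 1.27 and 1.37 in control skin, while the Sult2a2 and Sult2a6 probes were well above background in control skin only. Sult3a2 and Sult6b2 were not well above background on any array.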
